A study of Mus musculus with 14 samples.

Results

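Hepatic stellate cells (HSCs) that had been in culture for 64 h without drug were compared with HSCs at 4 h, which gives the net change over the whole period of culture. Of the 14 arrays of the series, 6 enter the contrast, 3 of Ctrl64h and 3 of Ctrl4h, chosen by their labels alone. Both groups were primary HSCs from the livers of BalbC mice (Balb/cByJ in the study's methods), kept untreated on plastic in medium with serum. The hours count from the washing step that removed unattached cells, and no drug was added to either group. The other arrays, 2 of untreated cells at 16 h (Ctrl16h) and 3 each at 64 h and 4 h with 2.5 mM valproic acid (VPA64h and VPA4h), were used to estimate the spread and, for Ctrl16h, to date the change. Each array carried the RNA of 1 culture and the study describes the samples of a group as separate HSC isolations. Plating on plastic with serum is a model of activation in a dish: it contains no injured liver, and the cells were already attached and out of the tissue at the 4 h time point.

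In the healthy liver HSCs lie in the space between hepatocytes and the sinusoids, store vitamin A as retinyl esters in lipid droplets and divide little. In injured liver, and likewise on plastic, they lose these stores, enter the cell cycle, become contractile and deposit scar matrix, a change called activation. Collagens and contractile proteins are its best known products.

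Expression was read as log2 values made by RMA, so a change of 1 is a 2-fold change, and all changes are given as Ctrl64h minus Ctrl4h with the standard error of the limma fit. RMA gives every array the same distribution of intensities, so that each change is relative to the other genes, and less RNA of a gene per cell cannot be told apart from fewer cells that express it. A gene was called when its adjusted p was under 0.05 and its change at least 2-fold. Of 19938 genes, 1414 rose (7.09%) and 452 fell (2.27%), and these 2 shares are the background for the counts of called genes below. At an adjusted p under 0.05 without the fold limit 5100 genes were higher and 6097 lower, the background for counts at any size. The median change over all genes was -0.08. Changes of at least 4-fold were found for 208 genes that rose and 56 that fell, and changes of at least 8-fold for 22 and 14. Arrays of the same group had correlations of 0.993 to 0.995 over the tested probe sets, against 0.939 to 0.951 between the groups. No array of Ctrl64h overlapped with one of Ctrl4h in any of the 1414 genes that rose and in 449 of the 452 that fell. The call already asks for a difference that is large against the spread, so this separation is no further support.

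The scale moved the balance of the 2 directions. When each array was centred on the mean of 8 housekeeping genes, 821 genes rose and 1011 fell, and the median of all genes was at -0.36. These 8 genes were not constant: 2 rose and 1 fell on the RMA scale, with changes from -1.01 to 1.28. Gapdh, a glycolytic enzyme, is read on these arrays only by 25 probe sets that name other genes too, and the brightest of them, at 13.4 in Ctrl64h and 12.8 in Ctrl4h, was used. Centred on it, 486 genes rose and 3005 fell, with the median of all genes at -0.64. Counts and directions below are on the RMA scale unless another is named. For list counts on the housekeeping and Gapdh scales the background is the count above for that scale, out of 19938 genes. Where falls outnumbered rises in a group on the RMA scale, they did so on both other scales, with as many or more genes that fell, and for most other groups the counts on these scales are given beside the first count.

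**Figure D1:**
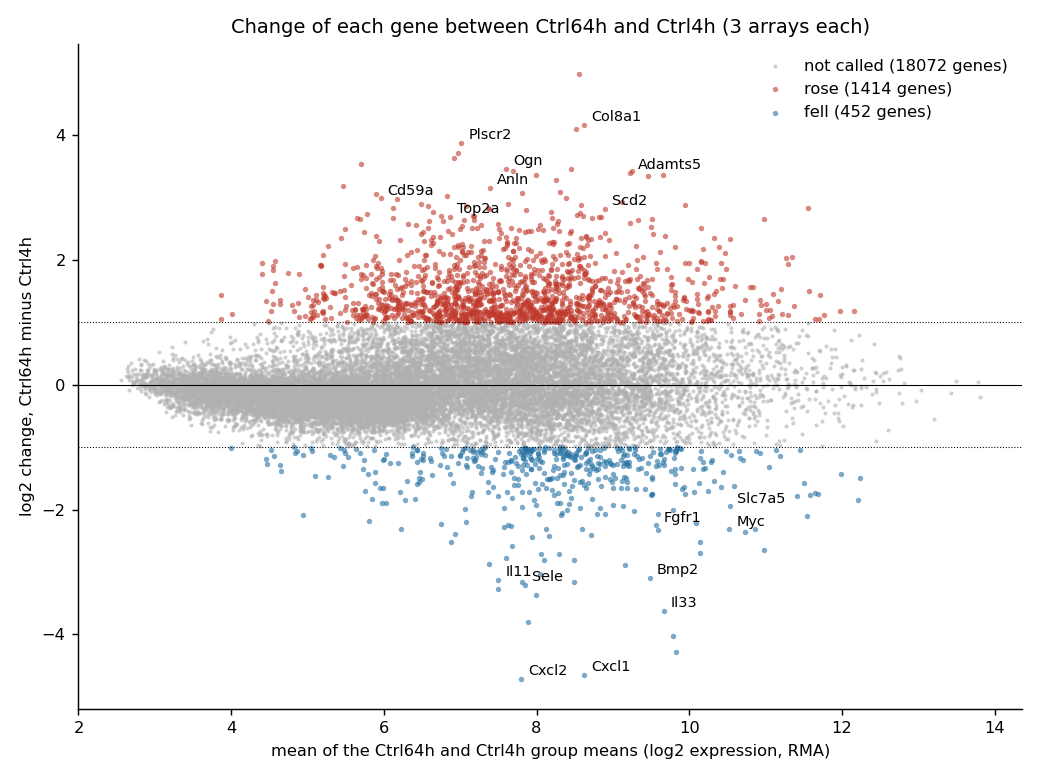
The log2 change of each of the 19938 genes (Ctrl64h minus Ctrl4h, vertical axis) is plotted against the mean of its 2 group means (log2 expression, horizontal axis), with 3 arrays per group. Red points are the 1414 genes that rose, blue points the 452 that fell, grey points were not called, and the dotted lines mark a 2-fold change. Cxcl2 lies at -4.71 among the blue points, and Vegfd at 4.98 among the red points.

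The arrays carried the markers of HSCs at both times. Pdgfrb, the receptor for platelet-derived growth factor B, was 11.23, 11.23 and 11.10 in Ctrl64h, against 11.39, 11.22 and 11.35 in Ctrl4h, and Dcn, the matrix proteoglycan decorin, was 13.32, 13.43 and 13.36 in Ctrl64h, against 13.48, 13.56 and 13.45 in Ctrl4h. Lrat, the enzyme that makes retinyl esters, was 7.54, 7.96 and 7.48 in Ctrl64h, against 6.95, 7.53 and 7.21 in Ctrl4h (change 0.43 ± 0.20, adjusted p = 0.0747), so its groups overlapped and it was not called. Among 9 HSC markers 2 rose and 3 fell. Desmin (Des), an intermediate filament protein, was 10.57, 10.53 and 10.54 on the Ctrl64h arrays and 8.62, 8.60 and 8.56 on the Ctrl4h arrays, and the transcription factor Hand2 changed by 1.84. Reln, the secreted protein reelin, Hgf, hepatocyte growth factor, and Colec11, a collectin, changed by -1.58, -1.32 and -2.71.

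Markers of other liver cells were measured at low levels as lists, with single bright members. The mean log2 level of 15 hepatocyte markers was 5.39 to 5.91 in Ctrl64h and 5.75 to 6.18 in Ctrl4h, that of 16 Kupffer cell and macrophage markers 5.81 to 6.17 in Ctrl64h and 5.84 to 6.20 in Ctrl4h, and that of 16 sinusoidal endothelial markers 6.33 to 6.58 in Ctrl64h and 6.64 to 6.81 in Ctrl4h. For 13 lymphocyte markers it was 4.80 to 4.91 in Ctrl64h and 5.28 to 5.45 in Ctrl4h, and for 15 markers of cholangiocytes, mesothelial cells and portal fibroblasts 6.22 to 6.49 in Ctrl64h and 6.19 to 6.55 in Ctrl4h. The brightest member was Plvap, a protein of endothelial fenestrae, at 10.85, 11.17 and 10.77 in Ctrl64h, against 12.17, 11.94 and 11.84 in Ctrl4h (-1.05 ± 0.14, adjusted p = 7.76e-06). Lyz2, a lysozyme of macrophages, was 9.73, 8.97 and 8.41 in Ctrl64h, against 9.02, 8.13 and 7.17 in Ctrl4h (0.93 ± 0.49, adjusted p = 0.114). Of these lists, 1 hepatocyte, 2 endothelial and 1 lymphocyte marker fell and 1 portal fibroblast marker (Fbln2) rose. The hepatocyte marker was albumin (Alb) at 7.37, 8.04 and 6.43 in Ctrl64h, against 7.89, 9.0 and 8.04 in Ctrl4h, whose groups overlapped and which changed by -1.03 ± 0.43, adjusted p = 0.0492. Its adjusted p was 0.0763 and 0.24 without Ctrl64h array 1 or 3, and 0.22 and 0.0606 without Ctrl4h array 2 or 3. Without Ctrl4h array 1 or Ctrl64h array 3 only 1 endothelial marker fell. The part of other cell types in the results below was not tested.

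The largest falls over culture were in chemokines, the small secreted proteins that attract leukocytes. Of 29 measured chemokines 11 fell and 1 rose, with a median change of -0.57, and 11 fell whichever of the 6 arrays was left out. Cxcl2, which attracts neutrophils, was 5.87, 5.46 and 4.98 in Ctrl64h, against 11.22, 10.03 and 9.19 in Ctrl4h, a fall of 26.1-fold (-4.71 ± 0.50, adjusted p = 9.03e-07). Its neighbour Cxcl1, with the same target cells, was 6.39, 6.38 and 6.13 in Ctrl64h, against 11.55, 10.72 and 10.59 in Ctrl4h (-4.65 ± 0.30, adjusted p = 3.21e-09). In both genes array 1 of Ctrl4h was the highest, and all 3 Ctrl4h arrays were far above every Ctrl64h array. Cxcl10, which attracts T cells and is known as a target of interferon, was 6.59, 7.25 and 6.90 in Ctrl64h, against 10.25, 10.0 and 9.96 in Ctrl4h (-3.16 ± 0.18, adjusted p = 1.11e-09), and Cxcl16, made as a membrane protein, was 7.82, 7.67 and 7.65 in Ctrl64h, against 10.99, 10.67 and 10.13 in Ctrl4h (-2.88 ± 0.16, adjusted p = 5.14e-10). Cxcl5, Ccl2 and Ccl7 changed by -3.36, -4.29 and -4.03. Ccl6 was the 1 chemokine that rose, at 9.18, 8.19 and 7.24 in Ctrl64h, against 5.90, 6.19 and 6.14 in Ctrl4h (2.12 ± 0.37, adjusted p = 0.000144), with 2 up without Ctrl64h array 2 or 3.

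The promoters of Cxcl2, Cxcl1, Cxcl3 and Cxcl10, which all fell, are shown because they hold matches to 1 motif. Cxcl2, Cxcl1 and Cxcl3 hold the same letters, and Cxcl10 holds other forms of the motif farther from the start of transcription. The sequences are from RefSeq on build GRCm38.p6, each is read on the strand of its gene from 5′ to 3′, and capitals mark matches to the NF-kB site, the binding motif of the NF-kB family of inflammatory transcription factors. Overlapping matches on the 2 strands are joined. Cxcl3, which changed by -2.58, was added to the set with its values known.
Cxcl2: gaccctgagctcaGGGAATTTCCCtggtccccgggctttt
Cxcl1: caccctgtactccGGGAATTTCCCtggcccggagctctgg
Cxcl3: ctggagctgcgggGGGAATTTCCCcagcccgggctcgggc
Cxcl10: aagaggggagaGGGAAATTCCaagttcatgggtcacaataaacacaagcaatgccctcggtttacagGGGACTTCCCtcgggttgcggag
The stretches lie at chr5:90903789-90903828, plus strand for Cxcl2, chr5:90891161-90891200, plus strand for Cxcl1, chr5:90786015-90786054, plus strand for Cxcl3 and chr5:92348970-92349059, minus strand for Cxcl10. In 300 bases around the start (250 before and 50 after) the motif was found on either strand in 6 of the 20 chemokine genes with a promoter in the table, 30%, and in 5.75% of all 15598 measured genes with one. Of the 6 chemokine genes called and with a promoter there, 4 held it. Ccl20 and Ccl9 also held it and were not called (changes of -0.44 and 0.89). A match describes the letters only.

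Cytokines and the list of NF-kB, Toll-like receptor and adhesion genes mostly moved the same way. Of 26 cytokines and receptors 6 fell and 0 rose, with a median of -0.48, and at any size 16 passed the adjusted p of 0.05 downward and 2 upward. Il33, an alarmin that is held in the nucleus and released by damaged cells, was 7.92, 7.73 and 7.91 in Ctrl64h, against 11.73, 11.48 and 11.21 in Ctrl4h (-3.62 ± 0.13, adjusted p = 1.12e-11). Il11, a cytokine of the interleukin 6 family, was 6.10, 6.02 and 5.69 in Ctrl64h, against 8.70, 8.70 and 9.78 in Ctrl4h (-3.12 ± 0.30, adjusted p = 3.33e-07). Csf2, which acts on myeloid cells, and Lif changed by -1.82 and -1.39, and Tnfrsf1b, a receptor for tumour necrosis factor, by -1.64. With single arrays left out the number of these genes that fell ran between 5 and 9.

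In the list of NF-kB, Toll-like receptor and adhesion genes, 11 of 30 fell and 2 rose, with a median of -0.59. The fallen included the feedback inhibitors of the pathway: Nfkbia, which holds NF-kB in the cytoplasm, was 8.96, 9.05 and 8.91 in Ctrl64h, against 11.43, 11.14 and 11.01 in Ctrl4h (-2.22 ± 0.18, adjusted p = 4.04e-08), and Tnfaip3, a ubiquitin-editing enzyme, was 7.13, 6.93 and 6.81 in Ctrl64h, against 10.39, 9.04 and 8.71 in Ctrl4h (-2.42 ± 0.35, adjusted p = 2.1e-05). Tnip1, a partner of Tnfaip3, and Nfkbiz changed by -1.69 and -1.50. The leukocyte adhesion molecules Sele and Vcam1 fell more: Sele (E-selectin) was 6.30, 5.96 and 6.47 in Ctrl64h, against 10.28, 9.35 and 8.70 in Ctrl4h (-3.20 ± 0.31, adjusted p = 3.47e-07) and Vcam1 was 9.61, 9.65 and 9.70 in Ctrl64h, against 12.38, 12.40 and 12.15 in Ctrl4h (-2.65 ± 0.14, adjusted p = 3.07e-10). Tlr3, the receptor for double-stranded RNA, went against the rest at 6.85, 6.72 and 6.71 in Ctrl64h, against 5.51, 5.33 and 5.27 in Ctrl4h (1.39 ± 0.12, adjusted p = 6.98e-08). Array 1 of Ctrl4h was the highest of its group in 10 of the 11 genes that fell here and in 10 of the 11 chemokines, and without it 8 genes of the list fell. The other gene that rose, Tlr6, was not called without Ctrl4h array 3 or Ctrl64h array 1.

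Immediate early genes, whose transcription starts within minutes of a stimulus without new protein, were mostly lower in Ctrl64h than in Ctrl4h. None of 28 rose, 15 fell, 22 were lower at an adjusted p under 0.05, and the median was -1.04. Without 1 array the number that fell ran from 12 to 15. Egr2, a zinc finger factor, was 6.17, 5.71 and 6.11 in Ctrl64h, against 9.63, 9.51 and 10.24 in Ctrl4h (-3.80 ± 0.21, adjusted p = 5.45e-10), and Fosl1, a subunit of the AP-1 factor, was 6.47, 6.64 and 6.97 in Ctrl64h, against 9.66, 9.34 and 9.50 in Ctrl4h (-2.80 ± 0.17, adjusted p = 1.48e-09). Myc, a driver of growth and of ribosome synthesis, was bright at 4 h and was 9.42, 9.32 and 9.36 in Ctrl64h, against 11.85, 11.55 and 11.64 in Ctrl4h (-2.31 ± 0.14, adjusted p = 1.23e-09). Nr4a1, an orphan nuclear receptor, was 7.46, 7.48 and 7.57 in Ctrl64h, against 9.41, 9.83 and 10.51 in Ctrl4h (-2.41 ± 0.23, adjusted p = 3.02e-07), and its Ctrl4h arrays were spread over more than 1 log2 unit, with array 3 the highest. Egr1 and Fosb changed by -2.71 and -3.27.

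The promoters of Egr2 are shown because the CArG box, the binding motif of serum response factor, was found in 2 of the 21 immediate early genes with a promoter in the table, Egr2 and Zfp36, against 1.63% of all genes. Egr2 has several start sites, and the capitals mark the match in each of the stretches below.
Egr2 from an upstream start: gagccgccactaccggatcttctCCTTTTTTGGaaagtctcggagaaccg
Egr2 from a downstream start: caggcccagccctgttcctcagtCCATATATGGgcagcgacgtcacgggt
They lie at chr10:67537471-67537520, plus strand and at chr10:67537774-67537823, plus strand. The cyclic AMP response element TGACGTCA was found in 2 of the 21 and in 2.72% of all genes, and the AP-1 site TGACTCA in 1 of the 21 and in 5.4% of all genes, both searched on the 2 strands. Of the 10 called genes with a promoter there 2 held the CArG box, 1 the cyclic AMP response element and 0 the AP-1 site.

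Feedback inhibitors of MAP kinase signalling, which are induced by the signal they restrain, fell with them. Of 19 DUSP, Sprouty and Spred genes and related inhibitors 6 fell and 0 rose, with a median of -0.44. The ERK phosphatase Dusp5 was 7.50, 7.51 and 7.20 in Ctrl64h, against 9.52, 9.20 and 9.49 in Ctrl4h (-2.0 ± 0.16, adjusted p = 3.64e-08). Errfi1, an inhibitor of the EGF receptor, was 10.90, 10.71 and 10.72 in Ctrl64h, against 12.52, 12.46 and 12.55 in Ctrl4h (-1.73 ± 0.08, adjusted p = 1.62e-10), and Dusp4, another phosphatase of MAP kinases, was 8.27, 7.90 and 8.12 in Ctrl64h, against 9.84, 9.11 and 9.43 in Ctrl4h (-1.36 ± 0.15, adjusted p = 1.69e-06). Array 1 of Ctrl4h was the highest in 5 of these 6 genes, and without it 4 of them were called.

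**Figure D2:**
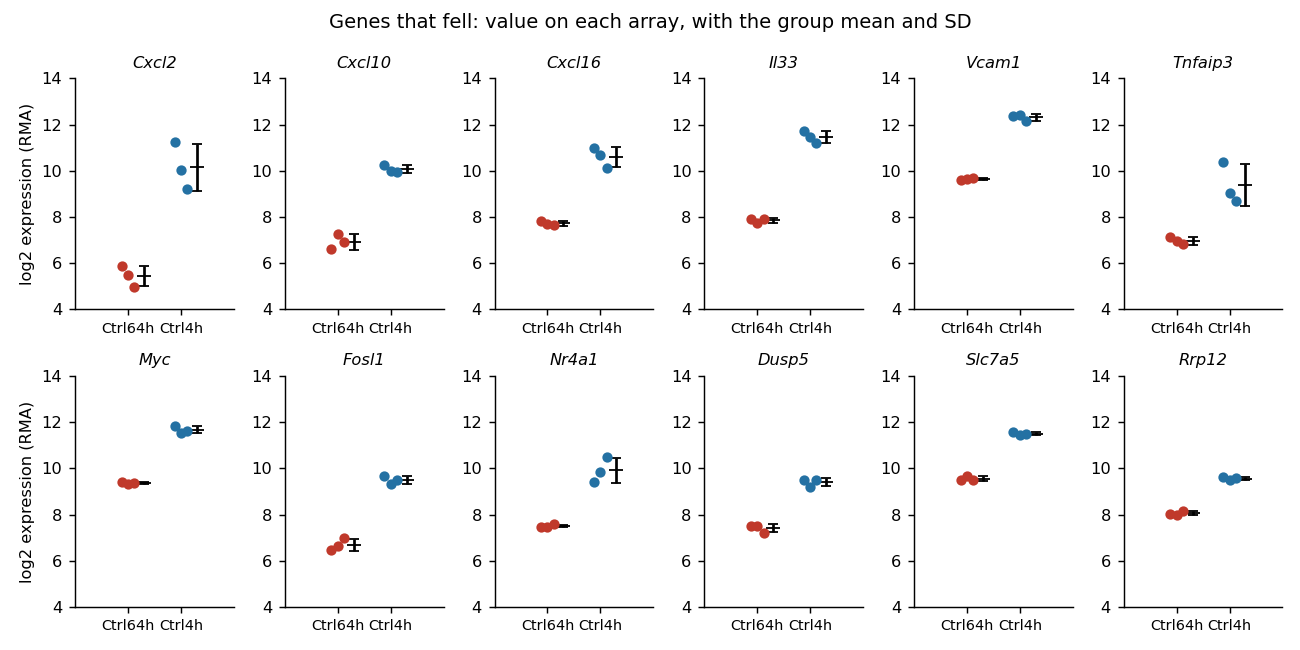
Log2 expression on each array is plotted for 12 genes that fell, with Ctrl64h (red, 3 arrays) left of Ctrl4h (blue, 3 arrays) and black bars for the group mean and SD. The groups do not overlap in any of the 12 genes, and Cxcl2, Tnfaip3 and Nr4a1 have the widest spread among the Ctrl4h arrays.

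Among complement genes, many of which the liver makes for the plasma, 7 of 19 fell and 2 rose, with a median of -0.18. Without array 1 of Ctrl4h the number that fell was 4. C6 and C7, which belong to the membrane attack complex, changed by -1.89 ± 0.22, adjusted p = 2.21e-06 and by -1.58 ± 0.18, adjusted p = 1.79e-06. Against them Cd59a, the membrane protein that blocks this complex on the cell's own surface, was 7.74, 7.12 and 7.49 in Ctrl64h, against 4.47, 4.34 and 4.58 in Ctrl4h, a rise of 7.94-fold (2.99 ± 0.16, adjusted p = 3.23e-10). Colec12, a scavenger receptor with a collectin domain, changed by 1.38. In the coagulation and plasminogen list 5 of 19 fell and 2 rose, with a median of -0.55. Serpinb2, an inhibitor of plasminogen activators, was 6.27, 5.52 and 6.04 in Ctrl64h, against 9.67, 8.41 and 8.34 in Ctrl4h (-2.86 ± 0.41, adjusted p = 2.41e-05), and Plaur, the receptor of urokinase, was 8.59, 8.07 and 8.43 in Ctrl64h, against 10.18, 9.97 and 9.90 in Ctrl4h (-1.65 ± 0.14, adjusted p = 4.55e-08). Procr, the endothelial protein C receptor, F3, tissue factor, and Tfpi2 changed by -1.67, -1.27 and -1.66. F2r, the thrombin receptor, and Tfpi, the inhibitor of tissue factor, rose by 1.54 and 1.37.

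On the RMA scale genes of the interferon response did not share a direction, as 3 of 35 rose and 3 fell, with a median of -0.06, and on the housekeeping and Gapdh scales 1 and 0 rose and 8 and 12 fell. Ifit2, which is induced by interferon and viral RNA, was 8.09, 7.98 and 7.95 in Ctrl64h, against 6.86, 6.53 and 6.42 in Ctrl4h (1.41 ± 0.12, adjusted p = 9.4e-08), and the RNA sensor Ddx58 (RIG-I) changed by 1.21. Rsad2 (viperin), also induced by interferon, was 5.84, 5.72 and 5.49 in Ctrl64h, against 7.64, 7.06 and 7.03 in Ctrl4h (-1.56 ± 0.20, adjusted p = 5.77e-06). Cd74, the invariant chain of MHC class II molecules, was 5.81, 4.53 and 5.13 in Ctrl64h, against 7.32, 6.46 and 6.67 in Ctrl4h (-1.66 ± 0.27, adjusted p = 8.13e-05). Without Ctrl4h array 3 the number that fell was 6.

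Cell cycle genes rose in both lists that hold them. All 34 measured genes of G2 and mitosis were higher at an adjusted p under 0.05, 20 of them rose and 0 fell, with a median of 1.37. The 20 calls were found whichever array was left out, and 20 and 13 rose on the housekeeping and Gapdh scales. Anln, the anillin of the cleavage furrow, was 9.13, 8.81 and 8.97 in Ctrl64h, against 6.02, 5.75 and 5.65 in Ctrl4h (3.16 ± 0.12, adjusted p = 1.32e-11). Top2a, the topoisomerase that untangles sister chromatids, was 8.08, 8.37 and 8.19 in Ctrl64h, against 5.60, 5.46 and 5.49 in Ctrl4h (2.70 ± 0.09, adjusted p = 6.51e-12), and the kinetochore protein Nuf2 was 7.72, 7.47 and 7.80 in Ctrl64h, against 4.72, 4.66 and 4.68 in Ctrl4h (2.98 ± 0.14, adjusted p = 1.21e-10). Mad2l1 and Bub1, of the spindle checkpoint, rose by 2.82 and 2.50, and Prc1, which bundles microtubules between the separating chromosomes, by 2.52. Cdk1, the kinase that drives entry into mitosis, was 8.76, 8.68 and 8.80 in Ctrl64h, against 6.39, 6.31 and 6.26 in Ctrl4h (2.43 ± 0.12, adjusted p = 2.76e-10) and was added for its role with its values known.

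Of 37 genes of the G1/S transition and DNA replication 20 rose and 0 fell, 34 were higher at an adjusted p under 0.05 and the median was 1.07. On the housekeeping and Gapdh scales 16 and 10 rose. Rrm2 and Rrm1, the subunits of the ribonucleotide reductase that makes DNA precursors, stood high in the list: Rrm2 was 8.43, 8.46 and 8.71 in Ctrl64h, against 6.10, 5.71 and 5.68 in Ctrl4h (2.70 ± 0.12, adjusted p = 9.45e-11) and Rrm1 was 10.12, 9.97 and 10.09 in Ctrl64h, against 7.62, 7.34 and 7.18 in Ctrl4h (2.68 ± 0.10, adjusted p = 1.78e-11). The primase subunit Prim1 was 7.58, 7.50 and 7.52 in Ctrl64h, against 4.68, 4.72 and 4.70 in Ctrl4h (2.83 ± 0.09, adjusted p = 5.44e-12). Mcm6, of the replicative helicase, was 8.87, 8.64 and 8.76 in Ctrl64h, against 6.49, 6.53 and 6.38 in Ctrl4h (2.29 ± 0.08, adjusted p = 1.31e-11), and the clamp loader subunit Rfc4 and cyclin E2 (Ccne2) rose by 2.08 and 2.35.

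Promoters of this group are shown because the lists differ from all genes in the motifs they hold. The CHR element TTTGAA, bound by the complex that times mitotic genes, was found on either strand in 20 of the 28 G2 and mitosis genes with a promoter in the table, 71.4%, and in 17.3% of all 15598 genes. The CCAAT box, searched as CCAAT on both strands, was found in 20 of the 28 and in 41.7% of all genes. The E2F site, searched as TTGGCGC or TTCGCGC on both strands, was found in 11 of the 31 G1/S genes, 35.5%, and in 6.11% of all genes. Of the 17 called G2 and mitosis genes with a promoter there 12 held the CHR element and 12 the CCAAT box. Of the 17 called G1/S genes with one 6 held the E2F site. Uncalled members held these motifs too, and the stretches below are all from called genes. No test was made of these shares. In the first pair of stretches the capitals mark CHR elements and CCAAT boxes, and in the last one E2F sites, in part overlapping on the 2 strands.
Cdk1: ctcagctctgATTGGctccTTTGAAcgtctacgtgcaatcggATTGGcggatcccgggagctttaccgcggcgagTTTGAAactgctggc
Top2a: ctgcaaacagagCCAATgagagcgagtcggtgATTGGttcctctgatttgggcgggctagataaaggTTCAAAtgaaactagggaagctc
Mcm6: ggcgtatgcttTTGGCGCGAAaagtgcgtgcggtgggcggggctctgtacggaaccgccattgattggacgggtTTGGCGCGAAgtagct
The stretches lie at chr10:69352913-69353002, minus strand for Cdk1, chr11:99024190-99024279, minus strand for Top2a and chr1:128359736-128359825, minus strand for Mcm6.

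Genes that restrain the cycle were higher as well as lower. Of 27 CDK inhibitors and p53 targets 9 rose and 4 fell, with a median of 0.35, which was 0.07 on the housekeeping scale and -0.20 on the Gapdh scale. Ccng1 (cyclin G1), a p53 target, was 11.41, 11.38 and 11.45 in Ctrl64h, against 9.04, 8.80 and 8.84 in Ctrl4h (2.52 ± 0.08, adjusted p = 6.84e-12), and Eda2r, a receptor of the tumour necrosis factor family that p53 is known to induce, was 8.78, 8.70 and 8.86 in Ctrl64h, against 6.26, 5.86 and 5.73 in Ctrl4h (2.83 ± 0.12, adjusted p = 4.02e-11). Phlda3, Gadd45g and Trp53inp1 changed by 2.19, 1.85 and 1.81. Cdkn2c, the CDK4 and CDK6 inhibitor p18, was 8.01, 7.29 and 7.51 in Ctrl64h, against 5.33, 5.90 and 5.95 in Ctrl4h (1.88 ± 0.21, adjusted p = 1.4e-06). The 4 members of this same list that fell, Sesn2, Plk2, Gadd45a and Plk3, changed by -1.83, -1.76, -1.65 and -1.13. Among 19 BCL2 family and caspase genes only Casp6 was called (1.24), with 2 genes up without Ctrl4h array 1 or 2 or Ctrl64h array 3, and on the housekeeping and Gapdh scales 0 and 0 rose and 2 and 3 fell.

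In the list of chromatin enzymes and linker histones 5 of 34 rose and 1 fell, with a median of 0.16 that was below 0 on the housekeeping and Gapdh scales, and on the housekeeping and Gapdh scales 3 and 3 rose and 3 and 5 fell. Uhrf1, which carries DNA methylation through replication, was 8.23, 8.03 and 8.09 in Ctrl64h, against 6.25, 6.17 and 5.69 in Ctrl4h (2.08 ± 0.15, adjusted p = 9.72e-09), and Ezh2, the Polycomb methyltransferase, was 8.80, 8.83 and 8.99 in Ctrl64h, against 6.94, 7.07 and 7.20 in Ctrl4h (1.80 ± 0.09, adjusted p = 2.47e-10). The acetyltransferase Kat2b changed by 1.90 and the deacetylase Hdac3 by 1.08. The gene that fell, the DNA demethylase Tet3, was at -1.04 ± 0.13, under 2-fold without Ctrl64h array 2 (-0.98) or Ctrl4h array 1 (-0.97). The mean of the probe sets of Tet3 changed by -0.89.

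Enzymes of cholesterol synthesis rose nearly throughout. Of 17 measured enzymes 14 rose and 0 fell, all 17 were higher at an adjusted p under 0.05, and the median of 1.43 was the highest of all lists except the activation markers. The 14 calls were found whichever array was left out, and 11 and 8 rose on the housekeeping and Gapdh scales. Idi1, the isomerase of the isoprenoid unit, was 9.10, 9.03 and 9.36 in Ctrl64h, against 7.01, 6.61 and 6.48 in Ctrl4h (2.46 ± 0.13, adjusted p = 3.02e-10). Fdps, which joins these units to farnesyl diphosphate, was 8.85, 8.88 and 9.0 in Ctrl64h, against 6.72, 6.73 and 6.25 in Ctrl4h (2.35 ± 0.15, adjusted p = 3.83e-09). The sterol dehydrogenase Nsdhl was 9.28, 9.32 and 9.55 in Ctrl64h, against 7.35, 6.94 and 6.96 in Ctrl4h (2.29 ± 0.12, adjusted p = 2.7e-10), and Lss, which closes the rings, and Cyp51, which removes a methyl group from lanosterol, changed by 2.05 and 1.81. Genes of uptake, efflux and control did not follow as a list, with 2 of 15 up and 3 down. The exporters Abca1 and Abcg1 and the lipoprotein Apoe fell, Abcg1 with 7.60, 7.54 and 7.49 in Ctrl64h, against 9.53, 9.30 and 9.22 in Ctrl4h (-1.81 ± 0.10, adjusted p = 9.72e-10) and Apoe with 10.72, 11.08 and 10.64 in Ctrl64h, against 12.55, 12.60 and 12.54 in Ctrl4h (-1.75 ± 0.12, adjusted p = 5.32e-09). Stard4, a cytosolic sterol carrier, and Insig2, which retains the sterol sensor in the endoplasmic reticulum, rose by 1.76 and 1.34. The motif of the sterol regulatory element, TCACNCCAC on either strand, was found in 1 of the 14 enzymes with a promoter in the table and in 1.4% of all genes. Of the 11 called enzymes with a promoter there 0 held it.

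Of 15 genes of fatty acid synthesis, elongation and desaturation 6 rose and 1 fell, with a median of 0.60, and on the housekeeping and Gapdh scales 5 and 4 rose and 2 and 2 fell. Scd2 and Scd1, which make monounsaturated fatty acids, were the furthest from 0: Scd2 was 10.22, 10.34 and 10.36 in Ctrl64h, against 7.27, 7.64 and 7.55 in Ctrl4h (2.82 ± 0.19, adjusted p = 5.38e-09) and Scd1 was 8.59, 8.60 and 8.86 in Ctrl64h, against 6.55, 6.27 and 6.63 in Ctrl4h (2.20 ± 0.16, adjusted p = 1.66e-08). Fads2 and Fads1, the desaturases of polyunsaturated fatty acids, and the elongase Elovl5 changed by 1.64, 1.36 and 1.72. The gene that fell was Acaca, acetyl-CoA carboxylase, at -1.05 ± 0.12, and its change fell under 2-fold without Ctrl64h array 2 (-0.99) or Ctrl4h array 3 (-1.0). The mean of its probe sets changed by -0.78.

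Of 33 genes of lipid droplets, triglyceride turnover and fatty acid oxidation 6 rose and 2 fell, with a median of 0.25 that was below 0 on both other scales, and on the housekeeping and Gapdh scales 4 and 1 rose and 4 and 5 fell. Plin2, the coat protein of the droplets, was 10.41, 10.48 and 10.21 in Ctrl64h, against 9.03, 9.29 and 9.09 in Ctrl4h (1.23 ± 0.11, adjusted p = 1.89e-07). Cpt1a, which takes fatty acids into mitochondria, was 9.08, 9.18 and 9.0 in Ctrl64h, against 7.48, 7.38 and 7.55 in Ctrl4h (1.62 ± 0.09, adjusted p = 3.46e-10), and Mgll, which splits monoglycerides, changed by 1.51. Acsl4, which activates arachidonic acid, and Lpin2, a phosphatidate phosphatase, changed by -1.70 and -1.50.

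In the retinoid list 5 of 20 genes rose and 1 fell, at a median of 0.19 that was below 0 on both other scales, and on the housekeeping and Gapdh scales 5 and 3 rose and 1 and 1 fell. Aldh1a2 and Aldh1a1 make retinoic acid from retinal. Aldh1a2 was 8.79, 8.79 and 9.19 in Ctrl64h, against 6.29, 6.14 and 6.80 in Ctrl4h (2.51 ± 0.22, adjusted p = 9.99e-08) and Aldh1a1 was 12.37, 12.39 and 12.35 in Ctrl64h, against 10.21, 10.51 and 10.26 in Ctrl4h (2.04 ± 0.12, adjusted p = 8.59e-10). The retinoic acid receptor Rarb, known as a target of retinoic acid, was 10.19, 10.07 and 10.14 in Ctrl64h, against 8.48, 8.93 and 8.48 in Ctrl4h (1.51 ± 0.12, adjusted p = 2.98e-08), and Dhrs3, which returns retinal to retinol, changed by 1.70. Rdh10, which makes retinal from retinol, went the other way at 8.55, 8.70 and 8.67 in Ctrl64h, against 10.14, 10.65 and 10.37 in Ctrl4h (-1.74 ± 0.14, adjusted p = 4.84e-08).

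On the RMA scale genes of the TCA cycle and respiratory chain were higher in small steps, and the glycolysis list held changes both ways. Of 34 genes of the TCA cycle and respiratory chain 32 passed the adjusted p upward and 0 downward, but only 5 reached 2-fold, and the median was 0.66. That median was 0.38 on the housekeeping scale and 0.10 on the Gapdh scale, where 0 genes of the list rose. Idh2, a mitochondrial isocitrate dehydrogenase, was 8.98, 9.12 and 8.98 in Ctrl64h, against 7.61, 7.59 and 7.47 in Ctrl4h (1.47 ± 0.09, adjusted p = 2.71e-09). In the glycolysis and pentose phosphate list 7 of 27 rose and 0 fell, with a median of 0.52, which was -0.04 on the Gapdh scale, and on the housekeeping and Gapdh scales 5 and 3 rose and 2 and 3 fell. On the RMA scale 16 of the list passed the adjusted p upward and 5 downward at any size. Tpi1, triose phosphate isomerase, was 11.12, 11.24 and 11.20 in Ctrl64h, against 9.27, 9.26 and 9.15 in Ctrl4h (1.96 ± 0.11, adjusted p = 6.86e-10). Pfkm, a phosphofructokinase, and Slc16a3, the lactate exporter, changed by 1.71 and 1.49. Pdk3 and Pdk4, kinases that shut off pyruvate dehydrogenase, changed by 2.05 and 1.33.

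Most genes in the list of amino acid supply were lower. Enzymes that make arginine from citrulline, outside the list, were higher and are given at the end. Of 25 genes of amino acid synthesis and transport 11 fell, 0 rose and 21 were lower at an adjusted p under 0.05, with a median of -0.71. Slc7a5 and Slc3a2 form the transporter of large neutral amino acids. Slc7a5 was 9.52, 9.68 and 9.48 in Ctrl64h, against 11.57, 11.44 and 11.51 in Ctrl4h (-1.95 ± 0.09, adjusted p = 7.43e-11) and Slc3a2 was 11.25, 11.27 and 11.28 in Ctrl64h, against 12.72, 12.68 and 12.70 in Ctrl4h (-1.44 ± 0.08, adjusted p = 1.02e-09). Chac1, which degrades glutathione and is known as a target of ATF4, was 7.78, 8.11 and 7.72 in Ctrl64h, against 10.26, 9.86 and 9.69 in Ctrl4h (-2.07 ± 0.15, adjusted p = 9.33e-09), and the cystine importer Slc7a11 and the mitochondrial folate enzyme Mthfd2 changed by -1.32 and -1.59. All 11 genes were highest on array 1 of Ctrl4h, and 10 of the list fell without that array.

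Ribosome biogenesis genes, which make and process ribosomal RNA in the nucleolus, fell as a list: all 22 were lower at an adjusted p under 0.05, 11 of them fell, and the median was -1.0. Rrp12, an export factor of the subunits, was 8.02, 7.98 and 8.16 in Ctrl64h, against 9.63, 9.49 and 9.57 in Ctrl4h (-1.51 ± 0.08, adjusted p = 4.62e-10). Nop2, a methyltransferase of ribosomal RNA, was 8.86, 8.71 and 8.76 in Ctrl64h, against 10.30, 10.23 and 10.23 in Ctrl4h (-1.48 ± 0.08, adjusted p = 2.91e-10), and Fbl, fibrillarin, was 8.46, 8.36 and 8.20 in Ctrl64h, against 9.59, 9.63 and 9.62 in Ctrl4h (-1.27 ± 0.09, adjusted p = 6.27e-09). On the housekeeping and Gapdh scales 17 and 21 of the 22 fell. The proteasome subunits stood as a contrast, with 0 of 31 called in either direction and a median of 0.01 on the RMA scale, and on the housekeeping and Gapdh scales 0 and 0 rose and 2 and 2 fell. At any size 9 passed the adjusted p upward and 7 downward.

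In the list of the unfolded protein response and heat shock 4 of 31 rose and 5 fell, with a median of 0.27 that was below 0 on both other scales, and on the housekeeping and Gapdh scales 1 and 1 rose and 5 and 8 fell. Ern1, the stress sensor IRE1, was 7.81, 7.71 and 7.75 in Ctrl64h, against 10.02, 9.66 and 9.83 in Ctrl4h (-2.08 ± 0.15, adjusted p = 8.62e-09), Trib3 was 7.39, 7.55 and 7.45 in Ctrl64h, against 9.56, 9.33 and 9.25 in Ctrl4h (-1.92 ± 0.12, adjusted p = 1.5e-09), and Atf4, the transcription factor of the integrated stress response, was 9.52, 9.63 and 9.53 in Ctrl64h, against 10.90, 10.78 and 10.72 in Ctrl4h (-1.24 ± 0.08, adjusted p = 4.98e-09). Against them Hspa4l, a member of the HSP110 family, and Pdia6, a protein disulphide isomerase, changed by 1.85 and 1.14.

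Of 33 glutathione, NRF2 and antioxidant genes 10 rose and 5 fell, at a median of 0.08. The peroxiredoxin Prdx2 was 10.51, 10.30 and 10.47 in Ctrl64h, against 8.42, 8.33 and 8.37 in Ctrl4h (2.05 ± 0.10, adjusted p = 2.62e-10), Gstm5, a glutathione transferase, was 8.52, 8.45 and 8.62 in Ctrl64h, against 6.06, 6.52 and 6.11 in Ctrl4h (2.30 ± 0.12, adjusted p = 2.29e-10), and Gpx4, which reduces lipid peroxides, changed by 1.43. The 5 that fell included the known NRF2 targets Srxn1, at 8.08, 7.96 and 8.09 in Ctrl64h, against 9.80, 9.98 and 10.13 in Ctrl4h (-1.93 ± 0.11, adjusted p = 9.41e-10), and Gclc and Gclm, the subunits of the enzyme that starts glutathione synthesis, at -1.65 and -1.33. Sod2, the mitochondrial superoxide dismutase, changed by -1.34. In this list, on the housekeeping and Gapdh scales 6 and 3 rose and 7 and 9 fell.

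Of 31 lysosomal genes 8 rose and 0 fell, at a median of 0.60 that was 0.04 on the Gapdh scale, and on the housekeeping and Gapdh scales 5 and 2 rose and 0 and 1 fell. Asah1, acid ceramidase, was 10.25, 10.19 and 10.24 in Ctrl64h, against 8.59, 8.54 and 8.32 in Ctrl4h (1.74 ± 0.09, adjusted p = 3.5e-10), and Lipa, which hydrolyses cholesteryl esters and triglycerides in the lysosome, was 10.21, 10.36 and 10.17 in Ctrl64h, against 8.81, 8.59 and 8.63 in Ctrl4h (1.57 ± 0.10, adjusted p = 1.61e-09). Grn, progranulin, and Ctsa, cathepsin A, changed by 1.55 and 1.51. Of 19 iron, copper and metallothionein genes 3 rose and 5 fell, and on the housekeeping and Gapdh scales 2 and 2 rose and 7 and 7 fell. Steap1, a metalloreductase, was 8.42, 8.04 and 8.40 in Ctrl64h, against 6.91, 6.48 and 6.31 in Ctrl4h (1.72 ± 0.16, adjusted p = 1.67e-07), while its relative Steap4 was 10.40, 10.84 and 10.34 in Ctrl64h, against 12.13, 12.42 and 12.36 in Ctrl4h (-1.78 ± 0.14, adjusted p = 3.77e-08). Mt2, a metallothionein, and Tfrc, the transferrin receptor, changed by -1.64 and -1.10.

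**Figure D3:**
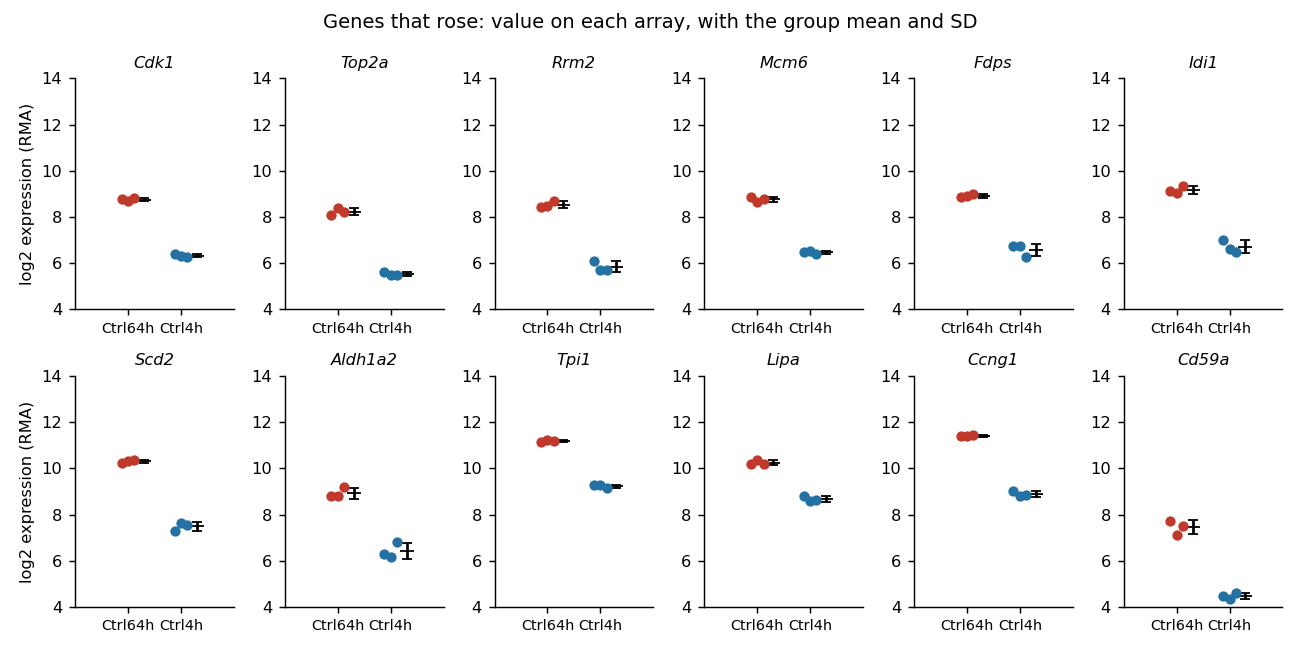
Log2 expression on each array is plotted for 12 genes that rose, with Ctrl64h (red, 3 arrays) left of Ctrl4h (blue, 3 arrays) and black bars for the group mean and SD. The groups do not overlap in any of the 12 genes, which belong to the cell cycle, sterol, fatty acid, retinoid, glycolysis, lysosome, p53 and complement lists.

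Among growth factor ligands 5 of 32 rose and 2 fell, with a median of -0.17, and on the housekeeping and Gapdh scales 3 and 3 rose and 4 and 6 fell. Apart from Vegfd (4.98) and Pdgfd (3.72), Angpt1, the agonist of the endothelial receptor Tie2, was 6.84, 7.33 and 6.81 in Ctrl64h, against 4.40, 4.14 and 4.40 in Ctrl4h (2.68 ± 0.15, adjusted p = 8.09e-10), and Gas6, a ligand of the TAM receptors, was 8.24, 8.65 and 8.28 in Ctrl64h, against 7.18, 7.07 and 7.46 in Ctrl4h (1.15 ± 0.14, adjusted p = 3.76e-06). Hgf was 10.30, 10.43 and 10.43 in Ctrl64h, against 11.44, 11.80 and 11.87 in Ctrl4h (-1.32 ± 0.14, adjusted p = 7.36e-07), and it was the 1 ligand that fell without Ctrl4h array 1, when Hbegf was at -0.94. Of 28 receptor tyrosine kinases 1 rose and 2 fell, and on the housekeeping and Gapdh scales 0 and 0 rose and 3 and 5 fell. Fgfr1, a receptor of fibroblast growth factors, was 8.47, 8.49 and 8.36 in Ctrl64h, against 10.68, 10.58 and 10.82 in Ctrl4h (-2.25 ± 0.09, adjusted p = 3.45e-11), and Kit, the stem cell factor receptor, was 5.79, 5.93 and 5.58 in Ctrl64h, against 7.37, 7.15 and 6.98 in Ctrl4h (-1.40 ± 0.13, adjusted p = 1.25e-07). The receptor that rose, Met, was at 1.17 ± 0.17 and at 0.97 without Ctrl4h array 3.

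The ligands Bmp2 and Bmp4 moved in opposite directions. Bmp2 was 8.02, 8.01 and 7.78 in Ctrl64h, against 11.36, 11.02 and 10.71 in Ctrl4h, a fall of 8.53-fold (-3.09 ± 0.16, adjusted p = 4.01e-10), while Bmp4 was 10.11, 10.31 and 10.14 in Ctrl64h, against 7.71, 7.39 and 7.37 in Ctrl4h, a rise of 6.47-fold (2.69 ± 0.13, adjusted p = 1.61e-10). Within the BMP list 5 of 25 rose and 2 fell, with a median of 0.15, below 0 on both other scales, and on the housekeeping and Gapdh scales 4 and 3 rose and 2 and 4 fell. Id2, an inhibitor of basic helix-loop-helix factors known as a BMP target, was 10.56, 10.30 and 10.38 in Ctrl64h, against 8.39, 8.21 and 7.98 in Ctrl4h (2.22 ± 0.11, adjusted p = 2.96e-10), and Bmper, which binds BMPs outside the cell, and the inhibitory Smad6 changed by 2.37 and 1.41. Gdf6, a further BMP family ligand outside the list, changed by 3.29 and was noted after the values were seen. Without Ctrl4h array 1 Bmp2 was the 1 gene of the list that fell, as Bmp6 was then at -0.86.

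Of 26 TGF-beta and activin genes 2 rose and 3 fell, at a median of -0.35, and on the housekeeping and Gapdh scales 2 and 0 rose and 6 and 11 fell. Tgfb3 was 11.42, 11.51 and 11.30 in Ctrl64h, against 10.29, 9.93 and 9.94 in Ctrl4h (1.36 ± 0.15, adjusted p = 1.29e-06) and the latent binding protein Ltbp4 was 8.30, 8.65 and 8.33 in Ctrl64h, against 10.71, 10.68 and 10.86 in Ctrl4h (-2.32 ± 0.10, adjusted p = 6.56e-11). Inhba, a subunit of activin A, and Fstl3, which binds activin, changed by -1.39 and 1.31. In the IGF axis 3 of 17 rose and 0 fell, and on the housekeeping and Gapdh scales 2 and 2 rose and 1 and 3 fell: Pappa, a protease that cleaves IGF binding proteins, was 8.03, 8.16 and 8.22 in Ctrl64h, against 5.79, 5.96 and 6.05 in Ctrl4h (2.20 ± 0.09, adjusted p = 4.02e-11), and the binding protein Igfbp3 was 10.78, 11.46 and 10.67 in Ctrl64h, against 9.28, 8.96 and 8.81 in Ctrl4h (1.95 ± 0.21, adjusted p = 1.07e-06).

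Among Wnt genes 4 of 39 rose and 0 fell, with a median of -0.02, and on the housekeeping and Gapdh scales 4 and 2 rose and 2 and 5 fell. Of the 4, 3 were Frizzled receptors. Fzd4 was 8.55, 8.64 and 8.48 in Ctrl64h, against 6.99, 6.86 and 7.02 in Ctrl4h (1.60 ± 0.08, adjusted p = 2.77e-10), Fzd8 was 9.46, 9.59 and 9.38 in Ctrl64h, against 7.95, 7.67 and 7.68 in Ctrl4h (1.71 ± 0.11, adjusted p = 2.56e-09) and Fzd2 changed by 1.39. Nkd1, an antagonist and known target of the pathway, changed by 1.55. No Notch gene of 21 was called by limma at 2-fold on the RMA scale, where -0.36 was the median, but on the housekeeping and Gapdh scales 0 and 0 rose and 3 and 10 fell. At any size on the RMA scale 12 passed the adjusted p downward and 3 upward, and 1 fell without Ctrl4h array 2 or Ctrl64h array 1 or 3. Of 15 Hedgehog genes 1 rose and 2 fell. Hhip, which captures the ligand, was 6.04, 6.76 and 6.70 in Ctrl64h, against 8.14, 8.21 and 8.32 in Ctrl4h (-1.72 ± 0.18, adjusted p = 8.45e-07), the transcription factor Gli3 changed by -1.49 and the co-receptor Boc by 1.49. The 2 Hippo pathway genes that rose, of 20, were Ajuba, at 8.95, 8.82 and 8.83 in Ctrl64h, against 6.51, 6.74 and 6.51 in Ctrl4h (2.27 ± 0.09, adjusted p = 2.84e-11), and Amotl2 (1.39), and on the housekeeping and Gapdh scales 2 and 1 rose and 1 and 2 fell.

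HSCs regulate their tone through G protein-coupled receptors. Of 25 genes of vasoactive signalling 6 rose and 2 fell, with a median of -0.19, and on the housekeeping and Gapdh scales 2 and 0 rose and 4 and 6 fell. The angiotensin receptor Agtr1a was 10.60, 10.56 and 10.51 in Ctrl64h, against 9.14, 9.06 and 9.0 in Ctrl4h (1.49 ± 0.09, adjusted p = 1.22e-09), and the receptor of vasoactive intestinal peptide, Vipr1, was 6.86, 6.94 and 6.50 in Ctrl64h, against 8.59, 8.53 and 8.65 in Ctrl4h (-1.82 ± 0.11, adjusted p = 1.38e-09). Lpar1, a receptor of lysophosphatidic acid, and Prkg1, the cGMP-dependent kinase, changed by 1.20 and 1.26. S1pr3, a receptor of sphingosine 1-phosphate, was at -1.03 ± 0.11 and was not called without Ctrl64h array 2 or 3 or Ctrl4h array 3 (-1.0, -0.96 and -0.95). Rgs5 and Rgs4, which speed up the shut-off of G proteins, moved oppositely, Rgs4 at 8.85, 8.83 and 8.61 in Ctrl64h, against 6.61, 6.15 and 6.04 in Ctrl4h (2.50 ± 0.18, adjusted p = 1.23e-08) and Rgs5 at 9.75, 9.83 and 9.55 in Ctrl64h, against 12.16, 12.01 and 11.87 in Ctrl4h (-2.31 ± 0.11, adjusted p = 1.43e-10). Ptgs2, the inducible cyclooxygenase, was the 1 of 21 prostaglandin genes called, at 8.18, 7.95 and 8.34 in Ctrl64h, against 10.57, 9.73 and 10.01 in Ctrl4h (-1.95 ± 0.29, adjusted p = 3.33e-05), and on the housekeeping and Gapdh scales 0 and 0 rose and 3 and 4 fell.

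Among the matrix lists other than collagens, the one of proteases held the most calls. Of 35 metalloproteinases, ADAMs, ADAMTS proteases and their inhibitors 12 rose and 3 fell, with a median of 0.48, and on the housekeeping and Gapdh scales 6 and 5 rose and 5 and 7 fell. The aggrecan-cleaving proteases Adamts5 and Adamts4 moved oppositely: Adamts5 was 10.83, 11.05 and 10.90 in Ctrl64h, against 7.75, 7.32 and 7.52 in Ctrl4h (3.40 ± 0.12, adjusted p = 1.12e-11) and Adamts4 was 6.49, 6.56 and 6.53 in Ctrl64h, against 9.37, 9.55 and 9.76 in Ctrl4h (-3.04 ± 0.11, adjusted p = 1.73e-11). Mmp10, a stromelysin, was 9.64, 9.04 and 9.93 in Ctrl64h, against 7.01, 7.01 and 6.58 in Ctrl4h (2.67 ± 0.23, adjusted p = 8e-08), Timp2 was 11.38, 11.45 and 11.36 in Ctrl64h, against 9.89, 9.85 and 9.69 in Ctrl4h (1.58 ± 0.08, adjusted p = 2.02e-10), and Mmp13, a collagenase, was 7.71, 7.19 and 7.85 in Ctrl64h, against 10.17, 9.73 and 8.77 in Ctrl4h (-1.97 ± 0.41, adjusted p = 0.000741).

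In the list of matricellular, elastic fibre and basement membrane glycoproteins 6 of 39 rose and 3 fell, with a median of -0.01, and on the housekeeping and Gapdh scales 5 and 3 rose and 7 and 8 fell. Nid2, a nidogen of basement membranes, was 11.21, 11.04 and 11.16 in Ctrl64h, against 8.21, 7.72 and 7.43 in Ctrl4h (3.35 ± 0.15, adjusted p = 9.44e-11), and Ccn5, a CCN protein, was 10.25, 9.93 and 9.86 in Ctrl64h, against 7.01, 7.25 and 7.15 in Ctrl4h (2.88 ± 0.15, adjusted p = 2.88e-10). Sparcl1, a relative of SPARC, was 8.65, 9.05 and 8.68 in Ctrl64h, against 11.38, 11.58 and 11.49 in Ctrl4h (-2.69 ± 0.11, adjusted p = 2.4e-11). Among 27 proteoglycan and hyaluronan genes 5 rose and 0 fell, though 2 fell without Ctrl64h array 1 and 1 without Ctrl4h array 3, and on the housekeeping and Gapdh scales 3 and 2 rose and 2 and 4 fell. Ogn, the small leucine-rich proteoglycan osteoglycin, was 9.05, 9.40 and 9.53 in Ctrl64h, against 5.42, 6.07 and 6.09 in Ctrl4h (3.46 ± 0.23, adjusted p = 3.62e-09), and the syndecan Sdc2 was 10.04, 10.17 and 10.10 in Ctrl64h, against 7.77, 7.91 and 7.69 in Ctrl4h (2.32 ± 0.10, adjusted p = 3.45e-11).

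Cell adhesion genes changed member by member. Of 33 cadherin, junction and adhesion genes 5 rose and 2 fell, and on the housekeeping and Gapdh scales 4 and 3 rose and 3 and 7 fell. Cdh3 (P-cadherin) was 9.35, 9.89 and 9.44 in Ctrl64h, against 6.83, 7.02 and 7.11 in Ctrl4h (2.57 ± 0.13, adjusted p = 3.27e-10), Jup (plakoglobin) changed by 1.62, and Gja1, the gap junction protein connexin 43, was 9.17, 8.94 and 9.11 in Ctrl64h, against 10.49, 10.38 and 10.48 in Ctrl4h (-1.38 ± 0.08, adjusted p = 1.61e-09). Of 40 integrin and focal adhesion genes 5 rose and 2 fell, and on the housekeeping and Gapdh scales 2 and 1 rose and 3 and 6 fell. Among those called were the collagen receptor subunit Itga1 (1.45) and the fibronectin receptor subunit Itga5, which was 8.84, 8.41 and 8.85 in Ctrl64h, against 10.05, 9.80 and 10.22 in Ctrl4h (-1.33 ± 0.14, adjusted p = 6.68e-07). Guidance genes had 3 of 38 up and 3 down, with Epha3 at 2.39 and the semaphorin receptor Plxnd1 at 8.40, 8.14 and 8.26 in Ctrl64h, against 10.27, 10.21 and 10.39 in Ctrl4h (-2.03 ± 0.09, adjusted p = 9.5e-11), and 5 fell without Ctrl64h array 3. For this list, on the housekeeping and Gapdh scales 1 and 1 rose and 7 and 11 fell. Of 20 S100 proteins and annexins 8 rose and 0 fell, with a median of 0.69, and on the housekeeping and Gapdh scales 4 and 3 rose and 0 and 0 fell. Beyond S100a6 (4.10), Anxa3 was 11.75, 11.65 and 11.69 in Ctrl64h, against 9.51, 9.33 and 9.24 in Ctrl4h (2.34 ± 0.11, adjusted p = 8.72e-11) and S100a4 was 6.77, 6.46 and 6.38 in Ctrl64h, against 5.0, 5.09 and 4.87 in Ctrl4h (1.55 ± 0.11, adjusted p = 1.57e-08). Of 20 tubulin, intermediate filament and microtubule genes 4 rose and 0 fell, and on the housekeeping and Gapdh scales 3 and 3 rose and 2 and 2 fell. The 4 included Tuba1a (1.94) and Stmn1, which destabilises microtubules (1.74).

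Of 26 lineage and mesenchymal transcription factors 4 rose and 1 fell, and on the housekeeping and Gapdh scales 4 and 3 rose and 3 and 6 fell. Nr2f2 (COUP-TFII), a nuclear receptor of mesenchyme and veins, was 10.07, 10.31 and 9.92 in Ctrl64h, against 7.86, 8.04 and 8.06 in Ctrl4h (2.11 ± 0.13, adjusted p = 2.33e-09), Mrtfa, the coactivator of serum response factor, was 8.62, 8.21 and 8.59 in Ctrl64h, against 6.93, 6.67 and 6.59 in Ctrl4h (1.75 ± 0.12, adjusted p = 4.29e-09), and Snai2, a repressor of epithelial genes, changed by 1.37. Srf itself was at -1.0 ± 0.08, under 2-fold without any 1 of Ctrl64h array 1, Ctrl64h array 2 or Ctrl4h array 1 (-0.99, -0.98 and -0.97). Beside Nr2f2 and Rarb, the 33 nuclear receptors, of which 4 rose and 2 fell, included Rarg (1.09) and Esr1 (1.08) among those that rose, and Nr1d1 and Nr1d2, repressors of the circadian clock, among those that fell, and on the housekeeping and Gapdh scales 2 and 1 rose and 2 and 5 fell. Nr1d1 was 8.75, 8.64 and 8.37 in Ctrl64h, against 10.10, 9.63 and 9.76 in Ctrl4h (-1.24 ± 0.14, adjusted p = 1.37e-06). With Ciart (-1.28), these were the 3 of 19 clock genes that were called.

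Genes known from quiescent HSCs fell: 11 of 19 fell and 2 rose, with a median of -1.56. Besides those given above, Ecm1, an extracellular matrix protein, was 11.24, 11.42 and 11.22 in Ctrl64h, against 13.21, 13.10 and 13.09 in Ctrl4h (-1.84 ± 0.09, adjusted p = 2.45e-10), and Angptl6, a secreted protein of the angiopoietin-like family, was 6.10, 6.55 and 6.03 in Ctrl64h, against 9.36, 9.49 and 9.31 in Ctrl4h (-3.16 ± 0.17, adjusted p = 4.46e-10). The low-affinity neurotrophin receptor Ngfr changed by -1.56. The members that rose were Hand2 and Pth1r, the parathyroid hormone receptor (1.15).

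Several of the 15 largest rises belong to none of these lists. Col8a1, a short-chain collagen, was 10.76, 10.73 and 10.65 in Ctrl64h, against 6.77, 6.27 and 6.58 in Ctrl4h (4.17 ± 0.14, adjusted p = 6.51e-12). Plscr2, a phospholipid scramblase, was 8.95, 8.94 and 8.97 in Ctrl64h, against 5.14, 5.12 and 4.95 in Ctrl4h (3.88 ± 0.13, adjusted p = 8.53e-12), and Car5b, a mitochondrial carbonic anhydrase, was 8.59, 8.86 and 8.78 in Ctrl64h, against 5.18, 5.05 and 5.07 in Ctrl4h (3.64 ± 0.12, adjusted p = 6.51e-12). Pkia, an inhibitor of protein kinase A, was 9.13, 9.82 and 9.27 in Ctrl64h, against 6.02, 5.75 and 6.14 in Ctrl4h (3.43 ± 0.16, adjusted p = 1.45e-10). Arxes2, Tmem45a, Klhl13 and Tuft1 changed by 3.53, 3.46, 3.36 and 3.36.

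**Figure D4:**
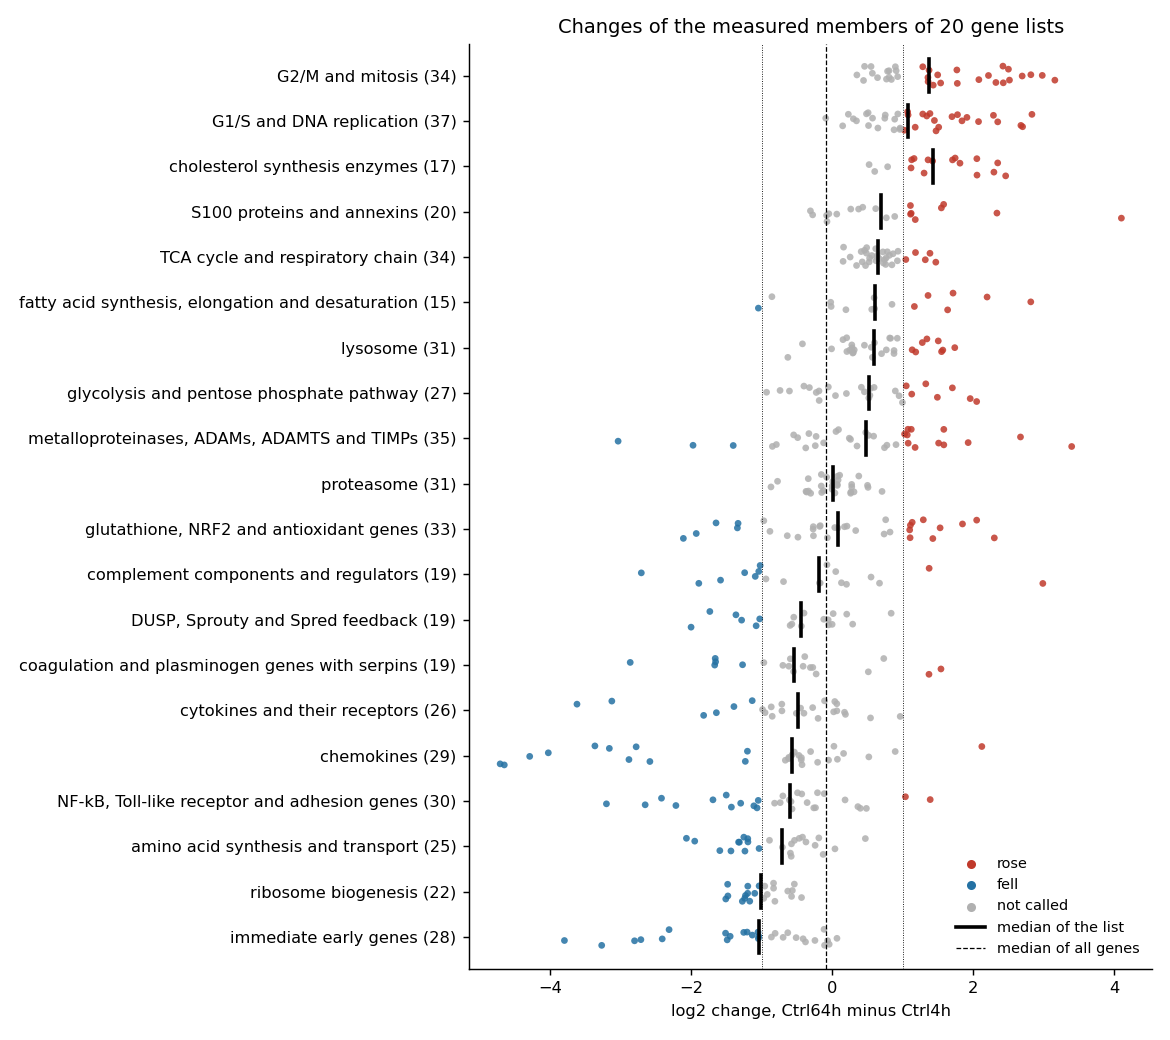
Each point is the log2 change (Ctrl64h minus Ctrl4h, horizontal axis) of 1 measured member of 20 gene lists, with the number of members in brackets. Red points rose, blue points fell, grey points were not called, black bars are list medians and the dashed line is the median of all genes, -0.08. On this RMA scale every member of the G2/M list lies right of 0 and every member of the ribosome biogenesis list left of it, and on the Gapdh scale some of the G2/M members lie below 0.

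The Ctrl16h arrays divide the change into an early and a late part. Both parts use the same 2 Ctrl16h arrays, with opposite sign, so that they are not independent. Over all genes the median change was -0.01 for Ctrl16h minus Ctrl4h and -0.07 for Ctrl64h minus Ctrl16h. For cholesterol synthesis the medians were 1.07 early and 0.43 late. For G2 and mitosis they were -0.10 early and 1.45 late, and for G1/S 0.38 and 0.78. Immediate early genes had medians of -0.71 early and -0.29 late, and ribosome biogenesis of -0.29 and -0.80. Lysosomal genes had 0.07 early and 0.63 late. Single genes show the same order: Fdps averaged 6.56 at 4 h, 8.03 at 16 h and 8.91 at 64 h, while Top2a averaged 5.52 at 4 h, 5.20 at 16 h and 8.21 at 64 h. The difference between the lists in timing was not tested.

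**Figure D5:**
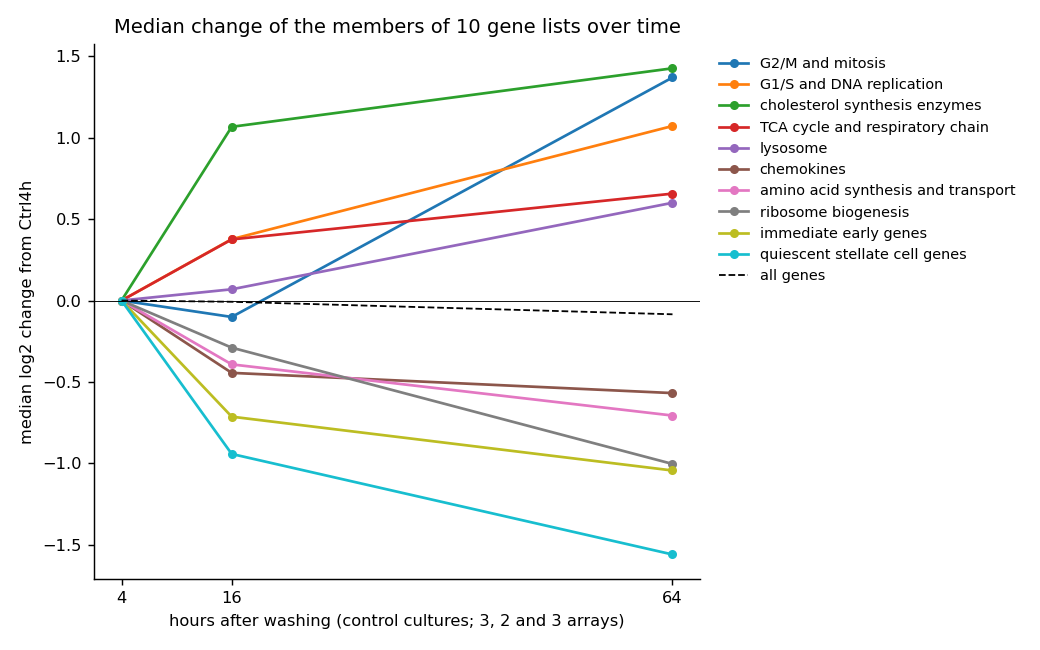
The median log2 change from Ctrl4h of the measured members of 10 gene lists is plotted against hours after washing (4, 16 and 64 h, with 3, 2 and 3 arrays), and the dashed line is the median of all genes. Cholesterol synthesis enzymes reach 1.07 at 16 h and 1.43 at 64 h, while G2/M genes are at -0.10 at 16 h and 1.37 at 64 h.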

How the data were processed

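RNA of 14 HSC cultures was hybridised to Affymetrix Mouse Gene ST arrays, 1 array per culture, and groups were taken from the labels. The authors deposited log2 expression values made by RMA (background correction, quantile normalisation and summarisation of probes). GeneSpring GX is named for this step in the paper and Affymetrix Expression Console in the submitters' processing notes, and the values were used as deposited. Of 35557 probe sets, those with any gene symbol (23410) entered the tests, and 21789 with exactly 1 symbol gave 19938 genes, each read from its brightest probe set. The array medians were 6.34 to 6.41.

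All 14 arrays were fitted in 5 groups with limma 3.58.1 (lmFit and eBayes, R 4.3.3), with two-sided p-values and the Benjamini-Hochberg adjustment across these 23410 probe sets. The fit was tested on simulated data. Since the labels do not tie the arrays to animals, p-values measure the spread between these samples. The members and lists were chosen with earlier results of these data known, so no list was tested. Named are the 15 largest changes each way among called genes with an established symbol and no overlap of the groups. Also named are up to 6 called members of each of 60 lists in each direction, and HSC and other cell type markers. Genes outside this rule are marked where they appear. Promoters and start sites are those of RefSeq on GRCm38.p6, matched by symbol for 15598 genes. The alternatives were other variance models and fits, other centring, a filter on dim probe sets, the mean of a gene's probe sets, the replicate block, and each array left out in turn.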

Additional observations from a re-analysis of the deposited data

Results flagged for a closer look

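Probe sets that name several genes were left out of the report, and they carried a signal of their own. Of 1621 such probe sets 331 fell (20.4%) and 58 rose (3.58%), against 2.27% and 7.09% of the genes with a probe set of their own. The probe sets are not independent: they name 800 distinct sets of genes, of which 125 hold a probe set that fell and 27 one that rose. The share that fell went with the number of genes named, from 51 of 725 probe sets with 2 genes to 83 of 157 with 10 or more. Families known from testis, oocyte or sensory cells were among them. All 45 probe sets of the Ssty family of the Y chromosome fell, with means of 5.42 to 6.18 on the Ctrl64h arrays and 8.11 to 8.42 on the Ctrl4h arrays. Of 58 probe sets of the Pramel, Oog and Obox families 40 fell, of 66 of the vomeronasal receptors 31, and of 100 of the olfactory receptors 16, with 0 that rose in each. Among genes with their own probe set, 7 of 1027 olfactory receptors fell and 0 rose, with a median of -0.23. All 24 probe sets of Snord116 fell, with means of 5.54 to 6.77 in Ctrl64h and 8.79 to 9.0 in Ctrl4h. In the opposite direction 14 of 27 probe sets that name histone genes rose and 0 fell, and the probe set shared by Cdkn1a, the CDK inhibitor p21, and 4930567H12Rik changed by 1.84. The cause of these shifts was not tested.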

How the results depend on the processing

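The counts of genes that rose and fell, 1414 and 452, stayed within 1.5 times of these values when only the 6 arrays of both groups were fitted, with another variance model, with the study's kind of analysis of variance, on median-centred arrays, with the mean of a gene's probe sets, or with dim probe sets left out. Leaving out 1 array gave 1375 to 1451 genes that rose and 423 to 480 that fell. Without the 2-fold limit 5100 rose and 6097 fell. Centring on housekeeping genes gave 821 and 1011, and centring on Gapdh 486 and 3005. Of 304 named genes that were called 102 lost the call under at least 1 alternative, 83 of them on the Gapdh scale and 43 on the housekeeping scale, and 0 changed sign. The deviations of arrays with the same replicate number had correlations of 0.03, 0.02 and 0.11, against -0.06 to 0.02 for different numbers, so the numbers were not taken as pairs. With the replicate block 1414 genes rose and 452 fell. Arrays give no counts, and 3 arrays per group limit the precision.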

Other observations

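A few gene groups outside the lists were looked at after the values were seen, so they carry no test as groups. In 1 of them, 5 Kruppel-like factors, 0 rose and 0 fell, with a median change of -0.49. Caveolae are small pits of the plasma membrane that buffer stretch, and 5 of the 7 genes of their coat that were looked at rose, with 0 that fell. Cavin2 was 7.91, 8.02 and 8.08 in Ctrl64h, against 5.08, 5.11 and 5.23 in Ctrl4h (2.86 ± 0.12, adjusted p = 3.43e-11), Cavin3 was 10.06, 10.42 and 10.02 in Ctrl64h, against 8.25, 8.66 and 8.48 in Ctrl4h (1.70 ± 0.16, adjusted p = 2.38e-07) and Ehd2, at the neck of the pit, was 11.27, 11.35 and 11.28 in Ctrl64h, against 9.63, 9.57 and 9.57 in Ctrl4h (1.71 ± 0.07, adjusted p = 5.28e-11). Cav1 itself was 6.45, 6.47 and 6.67 in Ctrl64h, against 5.83, 5.79 and 6.19 in Ctrl4h (0.59 ± 0.13, adjusted p = 0.00155) and was not called, and Pacsin2 was at -0.10. The enzymes that make arginine from citrulline were both higher: Asl was 9.08, 9.01 and 9.06 in Ctrl64h, against 7.10, 7.03 and 7.13 in Ctrl4h (1.97 ± 0.10, adjusted p = 4.16e-10), and the 2 probe sets that Ass1 shares with Gm5424 had a median change of 2.68. Gch1, the first enzyme of tetrahydrobiopterin synthesis, was 6.06, 5.87 and 6.01 in Ctrl64h, against 8.42, 8.23 and 7.90 in Ctrl4h (-2.20 ± 0.12, adjusted p = 5.53e-10).

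Of 31 measured genes known as imprinted, expressed from 1 parental copy, 5 rose and 0 fell, with a median change of 0.03. Neighbours at a locus were alike in part: Peg10 was 9.69, 9.50 and 9.75 in Ctrl64h, against 7.46, 7.13 and 7.09 in Ctrl4h (2.43 ± 0.14, adjusted p = 8.57e-10) and Sgce, beside it, was 10.19, 10.24 and 10.20 in Ctrl64h, against 8.53, 8.72 and 8.49 in Ctrl4h (1.63 ± 0.10, adjusted p = 3.19e-09). Ndn was 10.02, 10.07 and 10.0 in Ctrl64h, against 8.0, 8.55 and 8.10 in Ctrl4h (1.81 ± 0.14, adjusted p = 2.9e-08), and the probe set shared by Snurf and Snrpn, in the same imprinted region, was at 2.23, while the 24 probe sets of the small nucleolar RNA Snord116, of that region too, had a median of -2.63. These 24 all name the same 3 genes. A like fall was found outside the region, with a median of -2.48 for the 45 probe sets of the Ssty family of the Y chromosome. Whether the fall of Snord116 belongs to the imprinted region was not tested.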
